A study of Mus musculus with 2 samples.

Results

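The 40 S-phase and DNA replication genes described here encode the machinery that copies the genome and the factors that feed, guard and time that copying. They were taken as a fixed list of gene names, chosen with earlier results of these data known. All 40 were among the 32285 genes of both count matrices. Levels were compared in immune cells of mouse liver tumors, in 6 cell types gated by 1 marker gene each. The matrices come from a study that asked whether palbociclib, an inhibitor of the cell cycle kinases CDK4 and CDK6, restores the response of hepatocellular carcinoma to lenvatinib, a multikinase inhibitor.

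Both groups were wild-type male C57BL/6J mice, aged 6 to 8 weeks when taken for the tumor model and older when cells were collected. Trp53KO/MYCOE tumors had been induced by hydrodynamic injection of plasmids, so that tumor cells, and not the immune cells, carried the engineered alleles. From 12 days after injection, all animals received lenvatinib at 30 mg/kg for 25 days before the groups were split. The lenvatinib group then stayed on lenvatinib at 30 mg/kg, and the combo group received lenvatinib at 30 mg/kg with palbociclib at 100 mg/kg. Live CD45+ cells (CD45 marks hematopoietic cells) were sorted from the tumors and sequenced as 1 single-cell library per group, and how many mice went into a library is not given in the sources used here. With 1 library per group there was no replicate, so no difference was tested, and treatment, animal and library cannot be told apart in any comparison below.

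Cells entering the cell cycle switch on these genes as a program. CDK4 and CDK6 with D-type cyclins phosphorylate the retinoblastoma protein RB, which releases E2F transcription factors, and E2F targets include the helicase, polymerase and nucleotide synthesis genes listed here. In tumors, activated T and NK cells divide as they expand, B cells and myeloid precursors can cycle, and mature neutrophils are generally post-mitotic.

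The lenvatinib library held 14509 barcodes and 98107503 UMIs (unique molecular identifiers, each standing for 1 captured mRNA molecule), and the combo library held 11989 barcodes and 93583402 UMIs. After cells with over 6000 genes or over 25% mitochondrial UMIs were removed, 14201 and 11613 cells were left, with medians of 5541 and 5754 UMIs per cell. A cell was given a type when it held at least 1 UMI of exactly 1 of 6 gate genes. These were Cd3e for T cells (5173 cells under lenvatinib and 3795 under combo), Ncr1 for NK cells (2509 and 981), Cd79a for B cells (535 and 604), Csf1r for monocytes and macrophages (192 and 432), Csf3r for neutrophils (681 and 1468) and Flt3 for dendritic cells (249 and 217). Cells with none of the gate genes (2535 and 1449) or with 2 or more of them (2327 and 2667) were set aside. In each gate all 6 markers of its own type were detected in both libraries, such as Cd3d in T cells at 670 CPM (UMIs of the gene per 1000000 UMIs of the type) under lenvatinib and 722 under combo. Neutrophil RNA was higher in every other gate under combo. The 6 neutrophil markers (Csf3r, S100a8, S100a9, Retnlg, Cxcr2 and Mmp9) summed to 386 CPM in T cells under lenvatinib and 3010 under combo, to 461 and 7151 in NK cells, to 346 and 10369 in B cells, to 2368 and 18403 in monocytes and macrophages, and to 222 and 3965 in dendritic cells. In each of these gates 5 of the 6 were higher under combo and the gate gene Csf3r was at 0 by construction, and their part in the results was not tested. The libraries shared 49 barcodes.

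A ratio is always the combo level over the lenvatinib level, followed by its exact 95% counting interval. The intervals cover counting error only, and neither the spread between mice nor that between libraries. Those on levels and ratios take each UMI as an independent draw, so they leave out the spread between cells as well. A member entered the counts of a type when both libraries together held at least 50 of its UMIs in that type.

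The promoters of the list were looked at first, since E2F binding sites are the feature that textbook accounts give these genes in common. RefSeq promoter windows (GRCm38.p6, 250 bases before to 50 after a transcription start) were found for 30 of the 40 members. The E2F letters TTTCCCGC, TTTGGCGC, TTTCGCGC or TTTGCCGC, on either strand, were present for 12 of these 30 members (40%), against 2.61% of the 27025 genes with a window. They were also present for 13 of 37 matched genes of a list of 43 other replication genes, and for 1 of 17 matched genes of a list of 20 G2 and mitosis genes. The CHR letters TTTGAA, which genes of late cell cycle carry, showed the opposite pattern. They were present for 6 of the 30 members (20%), near the 20.2% of all genes, and for 12 of the 17 G2 and mitosis genes (70.6%). Letters alone are a description of these windows, and not a site of binding.

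The 160 bases before the RefSeq start are printed for 5 members with E2F letters and for Rrm2 and Ung, which have none there and which lie near the opposite ends of the T-cell ratios below. Capitals mark the E2F letters, and where matches on opposite strands overlap the capitals run together. The windows are Mcm6 chr1:128359706-128359865 (minus strand), Mcm5 chr8:75109349-75109508 (plus), Cdc6 chr11:98907991-98908150 (plus), Hells chr19:38930830-38930989 (plus), Dtl chr1:191575545-191575704 (minus), Rrm2 chr12:24708094-24708253 (plus) and Ung chr5:114130275-114130434 (plus).
Mcm6: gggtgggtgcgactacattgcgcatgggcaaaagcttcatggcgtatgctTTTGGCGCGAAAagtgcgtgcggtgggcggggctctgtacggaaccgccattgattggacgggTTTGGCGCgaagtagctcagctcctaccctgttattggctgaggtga
Mcm5: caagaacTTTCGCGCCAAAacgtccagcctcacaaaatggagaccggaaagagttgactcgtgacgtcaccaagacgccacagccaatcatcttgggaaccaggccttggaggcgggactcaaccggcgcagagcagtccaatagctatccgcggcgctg
Cdc6: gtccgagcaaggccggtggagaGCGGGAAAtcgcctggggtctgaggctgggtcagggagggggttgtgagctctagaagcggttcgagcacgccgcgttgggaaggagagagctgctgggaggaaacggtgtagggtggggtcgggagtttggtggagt
Hells: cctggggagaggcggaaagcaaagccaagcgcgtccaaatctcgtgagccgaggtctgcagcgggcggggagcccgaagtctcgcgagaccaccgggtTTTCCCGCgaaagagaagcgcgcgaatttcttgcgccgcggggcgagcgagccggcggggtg
Dtl: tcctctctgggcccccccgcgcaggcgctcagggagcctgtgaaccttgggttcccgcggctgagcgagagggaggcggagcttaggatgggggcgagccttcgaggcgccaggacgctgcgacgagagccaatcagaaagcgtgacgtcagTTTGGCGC
Rrm2: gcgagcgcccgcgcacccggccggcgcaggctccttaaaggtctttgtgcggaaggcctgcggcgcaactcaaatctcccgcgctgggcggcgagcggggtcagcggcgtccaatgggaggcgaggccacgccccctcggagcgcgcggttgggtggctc
Ung: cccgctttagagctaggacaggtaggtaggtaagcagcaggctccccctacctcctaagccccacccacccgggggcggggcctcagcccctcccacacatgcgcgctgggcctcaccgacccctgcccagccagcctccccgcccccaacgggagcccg

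Mcm6 and Mcm5 carry matches on both strands that overlap, Mcm6 a further match nearer the start, and the match of Dtl ends at the last base before the start. These starts are those of RefSeq, and GENCODE places some elsewhere. The printed Cdc6 window lies wholly inside the GENCODE gene (chr11:98907801-98923940). The Hells, Rrm2 and Ung windows run past the GENCODE starts at 38930915, 24708241 and 114130386, and the Hells match lies past that start. Members with E2F letters had T-cell ratios from 0.319 to 0.868 with a median of 0.605, and the 18 matched members without them had ratios from 0.305 to 0.961 with a median of 0.638. The letters therefore did not separate members with low ratios from members with high ones.

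In T cells, the 40 members together were lower under combo, and every one of them had a ratio below 1, against 64.4% of all genes tested in T cells. Their summed level was 2054 CPM under lenvatinib and 1340 under combo, a ratio of 0.652 (0.644 to 0.661). All 40 passed 50 UMIs, and the interval of 35 of them lay below 1. The members did not move as a block, since their ratios ran from 0.305 for E2f8 to 0.987 for Rfc2. A total of 7 members were at least 2-fold lower, against 3.43% of the 12102 genes tested in T cells, and none was at least 2-fold higher, against 2.29%. The median ratio of all genes tested was 0.901, so the members were also compared with that median. Against it, the summed ratio was 0.724, 36 members lay below the median gene and 4 above it, and 6 were at least 2-fold below it.

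**Figure D1:**
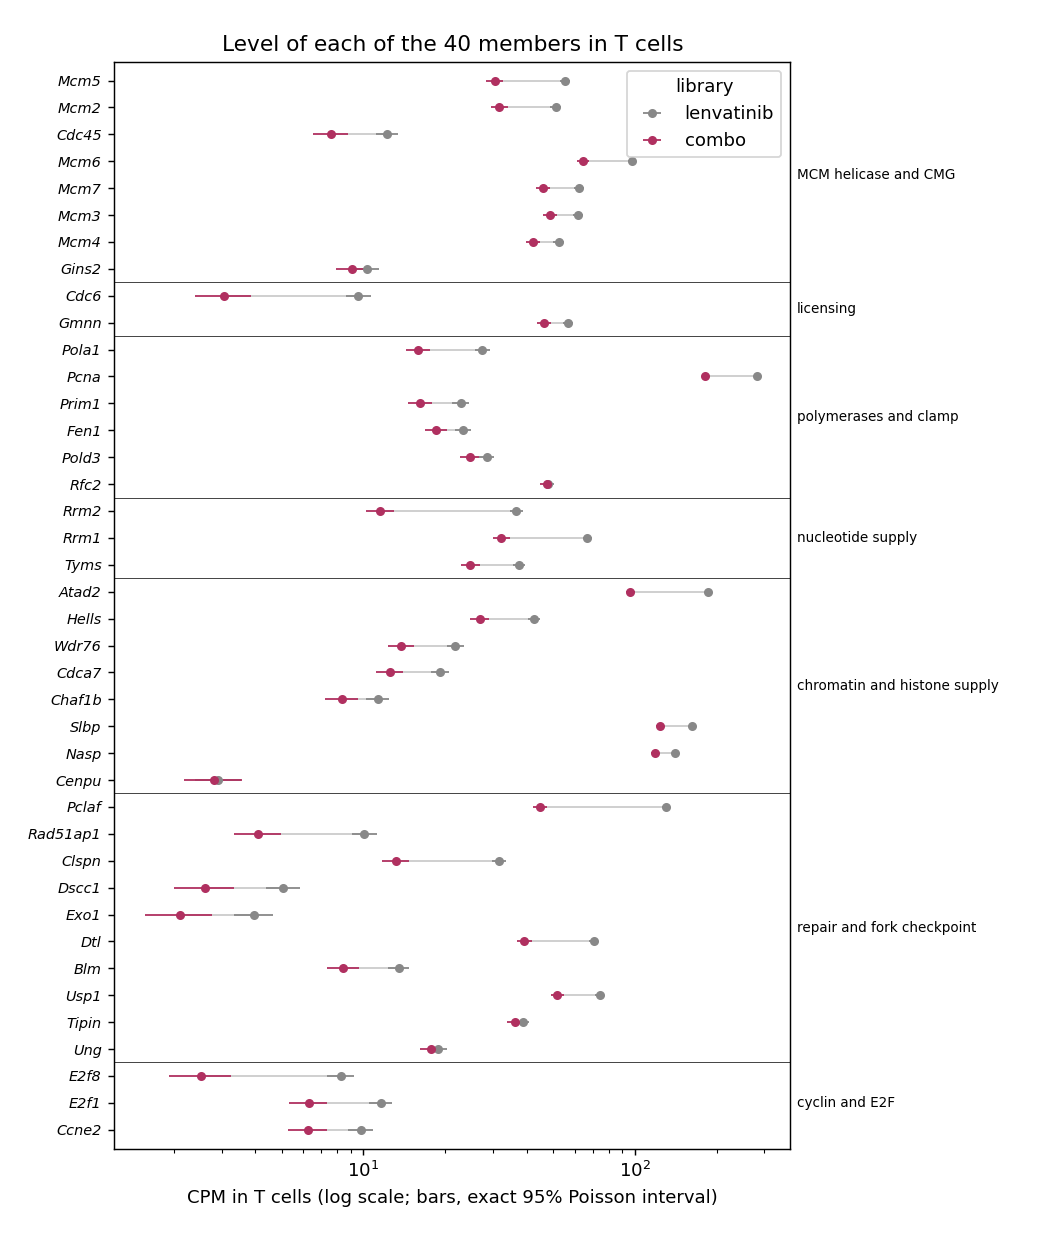
Level of each of the 40 members in T cells, in CPM on a log axis, grouped by role, with grey points for the lenvatinib library, red points for the combo library and bars for the exact 95% Poisson interval. Every red point lies left of its grey partner, with wide gaps for E2f8, Rrm2, Cdc6 and Pclaf and nearly none for Rfc2, Cenpu, Ung and Tipin.

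The 5 lowest ratios in T cells belonged to genes of 4 roles. E2f8, an E2F family repressor that is itself an E2F target, was at 8.27 CPM under lenvatinib and 2.52 under combo, a ratio of 0.305 (0.228 to 0.403). Rrm2, the S-phase subunit of ribonucleotide reductase, which makes deoxynucleotides, was at 36.6 and 11.5, a ratio of 0.314 (0.275 to 0.358). Cdc6, which loads the MCM helicase onto origins, was at 9.58 and 3.06, a ratio of 0.319 (0.245 to 0.412). These genes lie at chr7:48866429-48881596, chr12:24708241-24714146 and chr11:98907801-98923940 in the GENCODE annotation of mm10. Pclaf, which encodes a factor bound to the PCNA clamp, was at 129.9 and 44.9, a ratio of 0.345 (0.323 to 0.369). Rad51ap1 was at 10.1 and 4.09, a ratio of 0.406 (0.322 to 0.508). Clspn (0.415) and Rrm1 (0.482) were the other members at least 2-fold lower, and they encode claspin, an adaptor of the fork checkpoint, and the large subunit of ribonucleotide reductase.

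At the other end stood 5 members whose intervals all reached 1. Rfc2, a subunit of the loader that places PCNA on DNA, was at 47.9 CPM under lenvatinib and 47.3 under combo, a ratio of 0.987 (0.916 to 1.07). Cenpu, a centromere protein, had a ratio of 0.961 (0.698 to 1.32) on 105 and 68 UMIs. Ung, the uracil glycosylase of base excision repair, was at 18.8 and 17.7, a ratio of 0.945 (0.835 to 1.07). Tipin, a fork protection factor, had a ratio of 0.939 (0.862 to 1.02), and Gins2, a subunit of the replicative helicase complex, one of 0.885 (0.745 to 1.05). These are the members whose T-cell level did not differ beyond counting error.

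By role, the nucleotide supply genes showed the lowest ratio in T cells. Rrm1, Rrm2 and Tyms (thymidylate synthase) together went from 140.8 CPM to 68.5, a ratio of 0.486 (0.460 to 0.514). The 3 genes of the cyclin and E2F role, Ccne2, E2f1 and E2f8, had a ratio of 0.507 (0.449 to 0.572). Repair and fork checkpoint genes followed at 0.556 (0.539 to 0.574). The helicase genes Mcm2 to Mcm7 with Cdc45 and Gins2 were at 0.695 (0.676 to 0.716), with none of the 8 at 2-fold, and Mcm5 was the lowest of them at 0.552 (0.506 to 0.601) and Gins2 the highest. Polymerases and clamp genes were at 0.704 (0.685 to 0.724), where Pola1, the catalytic subunit of the primase complex polymerase, was at 0.582 and Pcna at 0.644. Chromatin and histone supply genes were at 0.687 (0.670 to 0.704), from Atad2, a bromodomain ATPase, at 0.518 to Nasp, a histone chaperone, at 0.843 and Cenpu. The licensing pair differed within itself, since Cdc6 was at 0.319 and Gmnn, which encodes the licensing inhibitor geminin, was at 0.814 (0.756 to 0.876).

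The neighboring parts of the cycle were read from lists that hold no member. Of 43 other replication genes, 10 were at least 2-fold lower in T cells, 40 had a ratio below 1 and the sum was at 0.726 (0.714 to 0.738). The lowest were E2f7, the paralog of E2f8, at 0.300, Uhrf1, which recruits the maintenance methyltransferase to new DNA, at 0.308, and the initiation factor Mcm10 at 0.337, whereas Rnaseh2a, a subunit of the enzyme that removes ribonucleotides from DNA, was at 1.15. All 20 G2 and mitosis genes were at least 2-fold lower, and their sum went from 1011 CPM to 272.5, a ratio of 0.269 (0.262 to 0.277). Mki67, the proliferation marker Ki-67, was at 182.1 and 40.2 CPM. The summed G2 and mitosis ratio was thus lower than that of the members, and the intervals did not overlap. Among 14 genes of the CDK4/6 and RB axis none was at least 2-fold lower. The drug targets Cdk4 and Cdk6 had ratios of 1.07 (1.003 to 1.13) and 0.844 (0.804 to 0.885), and the CDK inhibitor gene Cdkn1a had one of 1.33 (1.24 to 1.43).

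Because the G2 and mitosis list shares no gene with the members, it was used to split T cells by their place in the cycle. Each cell of at least 2000 UMIs was thinned to 2000 UMIs drawn at random, which left out 317 shallower T cells under lenvatinib and 107 under combo. T cells with at least 3 G2 and mitosis genes made up 359 of 4856 cells under lenvatinib (7.39%, exact binomial interval 6.67 to 8.17) and 62 of 3688 under combo (1.68%, 1.29 to 2.15). Within that class the summed members were not lower under combo. The cells held 10.2 member UMIs per cell under lenvatinib and 11.4 under combo, a ratio of 1.12 (1.03 to 1.21). Single members varied there, on few combo UMIs. Rrm2 was at 210 CPM under lenvatinib and 121 under combo on 151 and 15 UMIs. Dtl was at 160 and 105 on 115 and 13 UMIs, and Mcm2 at 78.0 and 40.3 on 56 and 5. Pclaf was at 701 and 879 on 503 and 109 UMIs, and Tyms at 148 and 242 on 106 and 30. No interval was computed between the libraries for single members of this class. In T cells with no G2 and mitosis gene, 3485 and 3179 cells, the members held 2.61 and 2.12 UMIs per cell, a ratio of 0.813 (0.787 to 0.839). T cells with 1 or 2 such genes, 1012 (20.8%) and 447 (12.1%) cells, held 3.62 and 2.765, a ratio of 0.765 (0.716 to 0.816). The difference in the sum over all T cells was therefore accompanied by a smaller share of that class and by a lower level in the cells outside it, and not by a lower summed level in the class itself.

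The split also showed how unlike the members are. In the lenvatinib library, Pclaf was at 701 CPM in T cells with at least 3 G2 and mitosis genes and at 10.6 in T cells with none, 66.0-fold apart (51.6 to 85.4). E2f8 was 48.5-fold apart, Rrm2 43.1-fold, Rad51ap1 35.8-fold and Cdc6 25.9-fold. Atad2, Rfc2, Pold3 (a subunit of polymerase delta) and Slbp (the histone mRNA binding protein) were 1.90-fold, 1.93-fold, 2.02-fold and 2.15-fold apart, and Ung was at 11.1 CPM in the first class and 12.8 in the other. So part of the list was found mainly in T cells with mitosis genes, and part of it is found as well in T cells with no sign of mitosis.

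The T-cell ratios followed that order. The 8 members more than 10-fold apart (Cdc45, Cdc6, E2f8, Exo1, Pclaf, Rad51ap1, Rrm2 and Tyms) had a median combo to lenvatinib ratio of 0.376. The 20 members 3-fold to 10-fold apart had a median of 0.634, and the 12 members less than 3-fold apart had one of 0.750. Across the 40 members, Pearson's r between the log2 fold and the log2 ratio was -0.77 and Spearman's rho was -0.62. These values describe genes that share the same T cells of the lenvatinib library, which enter both axes. With the fold taken from NK cells of that library, which share no cell with the T-cell ratio, r was -0.70 and rho was -0.53. The class with at least 3 G2 and mitosis genes was a smaller share of T cells under combo. A member concentrated in that class therefore tends to a lower ratio over all T cells, whichever cells supply the fold. Neither correlation is independent of that share.

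**Figure D2:**
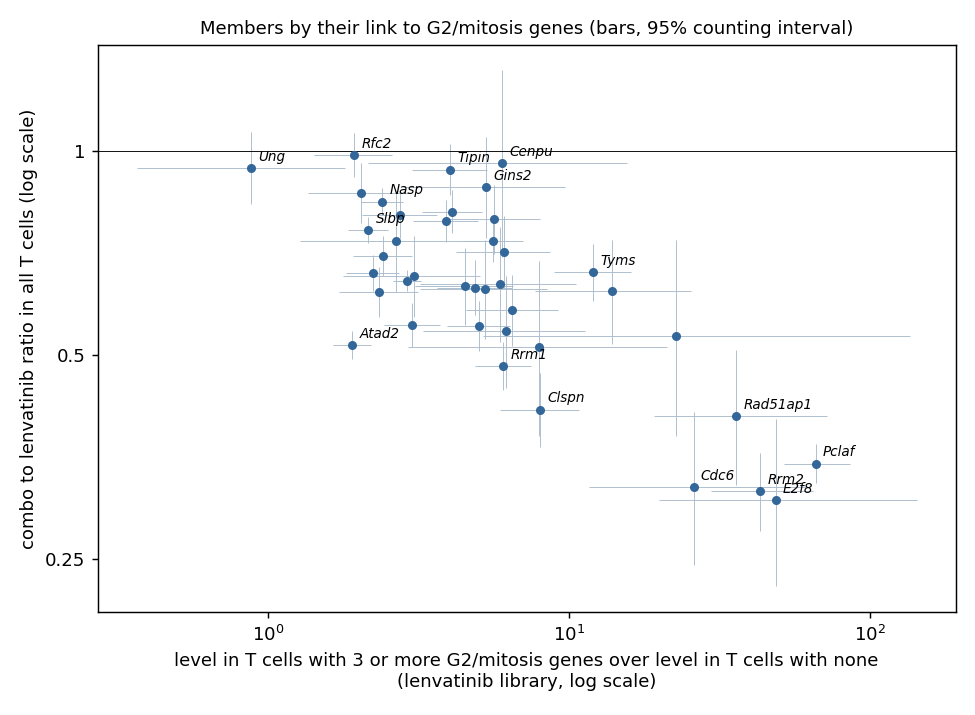
Each point is 1 of the 40 members, with its level in T cells with at least 3 G2 and mitosis genes over its level in T cells with none (lenvatinib library, log axis) against its combo to lenvatinib ratio in all T cells (log axis), and bars for 95% counting intervals. Pclaf, Rrm2, E2f8, Cdc6 and Rad51ap1 sit at the lower right, Ung and Rfc2 at the upper left, and Atad2 lies below the other members with a small fold.

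Several members were lower under combo in T cells with no G2 and mitosis gene, and Atad2 stood out among them. It held 165 CPM in such cells under lenvatinib and 90.0 under combo, a ratio of 0.545 (0.493 to 0.603), close to its ratio of 0.518 in all T cells. Clspn was at 14.5 and 6.45, a ratio of 0.445 (0.302 to 0.646). Mcm5, Dtl (a substrate receptor of the CRL4 ubiquitin ligase), Rrm1, Mcm6 and Pcna were at 0.645, 0.644, 0.685, 0.688 and 0.726, with intervals below 1. Nasp, at 107.7 and 107.3 CPM, and Slbp, at 135.6 and 127.7, differed little in the same cells. Of 35 members with at least 20 thinned UMIs there, 23 had a ratio below 1 and 12 above, 11 intervals lay below 1 and none lay above. For all genes tested over all T cells, 64.4% had a ratio below 1, near the 23 of 35, and the median ratio was 0.901. Neither value was computed for this class.

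A count of members per cell gave the same direction. Cells with at least 3 of the 40 members after thinning made up 42.5% of T cells under lenvatinib (2065 of 4856, 41.1 to 43.9) and 29.9% under combo (1102 of 3688, 28.4 to 31.4). Without thinning the shares were 84.5% and 78.6%, at medians of 6019 and 5478 UMIs per cell. Slbp, Nasp, Atad2 and Pcna were also found in T cells with no G2 and mitosis gene, and the share was not compared with a measure of phase, so it is a share of cells with member UMIs and not a share of cells in S phase. Neutrophils, mostly non-dividing, gave the lowest share, 10.2% and 4.46%, at medians of 2516 and 4744 UMIs per cell. Within T cells, the share went from 45.3% to 32.7% in Cd8a-positive cells and from 41.2% to 28.2% in Cd4-positive cells. It was 154 of 372 Foxp3-positive cells under lenvatinib (41.4%, 36.3 to 46.6), which are regulatory T cells by marker, and 12 of 52 under combo (23.1%, 12.5 to 36.8). Read gene by gene in T cells that held at least 3 of the other members, the summed ratio was 0.668 (0.642 to 0.695), and in the remaining T cells it was 0.839 (0.810 to 0.870). Of the T cells with at least 3 members, 14.8% under lenvatinib and 5.08% under combo also held at least 3 G2 and mitosis genes.

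**Figure D3:**
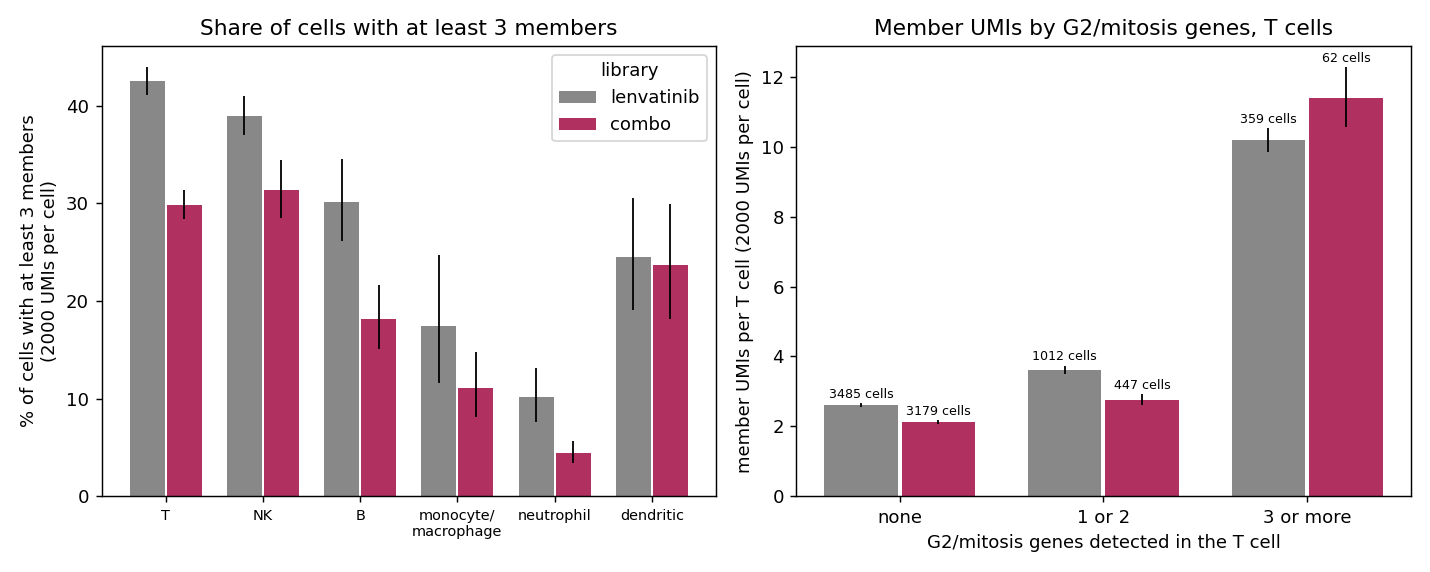
Left, percentage of cells of each gated type with at least 3 of the 40 members after thinning to 2000 UMIs, with exact 95% binomial intervals. Right, member UMIs per T cell by the number of G2 and mitosis genes found in the cell, with 95% Poisson intervals, where the class with 3 or more holds 359 cells under lenvatinib and 62 under combo and the red bar there is not lower than the grey one.

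By summed UMIs, NK cells showed a smaller and more mixed difference than T cells. Their members together went from 1770 CPM to 1514, a ratio of 0.855 (0.838 to 0.873), and 0.934 against the median gene, whose ratio was 0.916. All 40 passed 50 UMIs, and 28 had a ratio below 1 and 12 above, near the 62.4% of all NK-cell genes tested with a ratio below 1. Against the median gene 22 members lay below and 18 above. Only E2f8 and Rad51ap1 were at least 2-fold lower, against 2.78% of the 10598 genes tested, and no member was at least 2-fold higher, against 1.99%. E2f8 was at 7.04 and 1.78 CPM, a ratio of 0.252 (0.134 to 0.439), and Rad51ap1 was at 8.30 and 3.94, a ratio of 0.474 (0.312 to 0.700). On the other side, Gins2 was at 11.1 and 15.9, a ratio of 1.43 (1.14 to 1.79), Tipin was at 36.4 and 47.9, a ratio of 1.31 (1.16 to 1.49), and Rfc2 was at 60.7 and 68.7, a ratio of 1.13 (1.02 to 1.25). The interval of these 3 members lay above 1. With each cell weighted equally, the summed ratio was 0.779 in NK cells and 0.692 in T cells. At that weighting 33 NK members were lower and 7 higher, and 6 were at least 2-fold lower, against 7 in T cells. The share over all genes was not computed at that weighting.

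Rrm2 and Pclaf, among the lowest in T cells, were at 0.718 (0.597 to 0.860) and 0.687 (0.621 to 0.758) in NK cells, and neither interval met the one in T cells. With each cell weighted equally they were at 0.425 and 0.469 in NK cells, nearer to the equally weighted 0.310 and 0.315 in T cells, and 1 combo NK cell held 11.5% of the Rrm2 UMIs and 1 held 8.19% of the Pclaf UMIs. The G2 and mitosis genes of NK cells had a summed ratio of 0.380 (0.364 to 0.396). NK cells with at least 3 G2 and mitosis genes were 137 of 2349 (5.83%, 4.92 to 6.86) under lenvatinib and 18 of 969 (1.86%, 1.11 to 2.92) under combo. Their member UMIs per cell were 9.59 and 10.1, a ratio of 1.05 (0.893 to 1.23). In NK cells with no G2 and mitosis gene the ratio was 0.881 (0.834 to 0.931), with Atad2 again low at 0.569 (0.450 to 0.715) and Fen1, the flap nuclease of lagging strand synthesis, at 1.93 (1.23 to 3.03). In the 444 and 78 NK cells with 1 or 2 such genes the summed ratio was above 1, at 1.235 (1.089 to 1.397). The share of NK cells with at least 3 members was 916 of 2349 (37.0 to 41.0%) under lenvatinib and 304 of 969 (28.5 to 34.4%) under combo, and 84.7% and 82.5% without thinning. Thinning left out 160 and 12 NK cells.

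B cells had the lowest ratio of summed UMIs of the 6 types. The members together went from 1751 CPM to 754, a ratio of 0.430 (0.410 to 0.452), and all 28 members with at least 50 UMIs were lower, against 79.6% of all B-cell genes tested. At least 2-fold lower were 17 of the 28, against 11.9% of the 7475 genes tested, where the median gene had a ratio of 0.745. Against that median the summed ratio was 0.578, with 24 members below it, 9 of them at least 2-fold, and 4 above it. Pclaf was at 137.7 and 23.6 CPM, a ratio of 0.172 (0.132 to 0.220), and Hells, a chromatin remodeler of replicating DNA, was at 35.4 and 6.28, a ratio of 0.178 (0.105 to 0.289). Rrm1 and Dtl were at 0.217 and 0.215. Rfc2 and Fen1 were at 0.852 (0.677 to 1.07) and 0.794 (0.565 to 1.12). E2f8, below the 50 UMI limit, held 37 UMIs under lenvatinib and 1 under combo.

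The size of the B-cell difference and its place among the types depended on how cells were weighted. When each cell counted equally, the ratio was 0.647, above the 0.571 of neutrophils and the 0.621 of monocytes and macrophages, and 7 members were at least 2-fold lower. Over all UMIs of the cells that held no G2 and mitosis gene after thinning, it was 0.715 in B cells and 0.597 in neutrophils. The 1 cell with the most member UMIs held 6.11% of them under lenvatinib and 4.52% under combo. B cells with at least 3 G2 and mitosis genes were 14 of 477 (2.94%, 1.61 to 4.88) and 4 of 567 (0.706%, 0.193 to 1.80), with 11.9 and 12.5 member UMIs per cell. In the 77 and 42 B cells with 1 or 2 such genes the ratio was 0.416 (0.308 to 0.554). Cells with at least 3 members made up 30.2% (26.1 to 34.5) and 18.2% (15.1 to 21.6), and 54.6% and 52.5% without thinning, which left out 58 and 37 cells. In the B-cell gate Pax5, a B-lineage factor, was at 391.6 and 165.6 CPM and Ighm, the immunoglobulin mu chain gene, at 3755 and 8133. The 6 NK markers summed to 232.8 and 73.9 CPM there, with none of them higher under combo, and the part of these differences in the result was not tested.

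**Figure D4:**
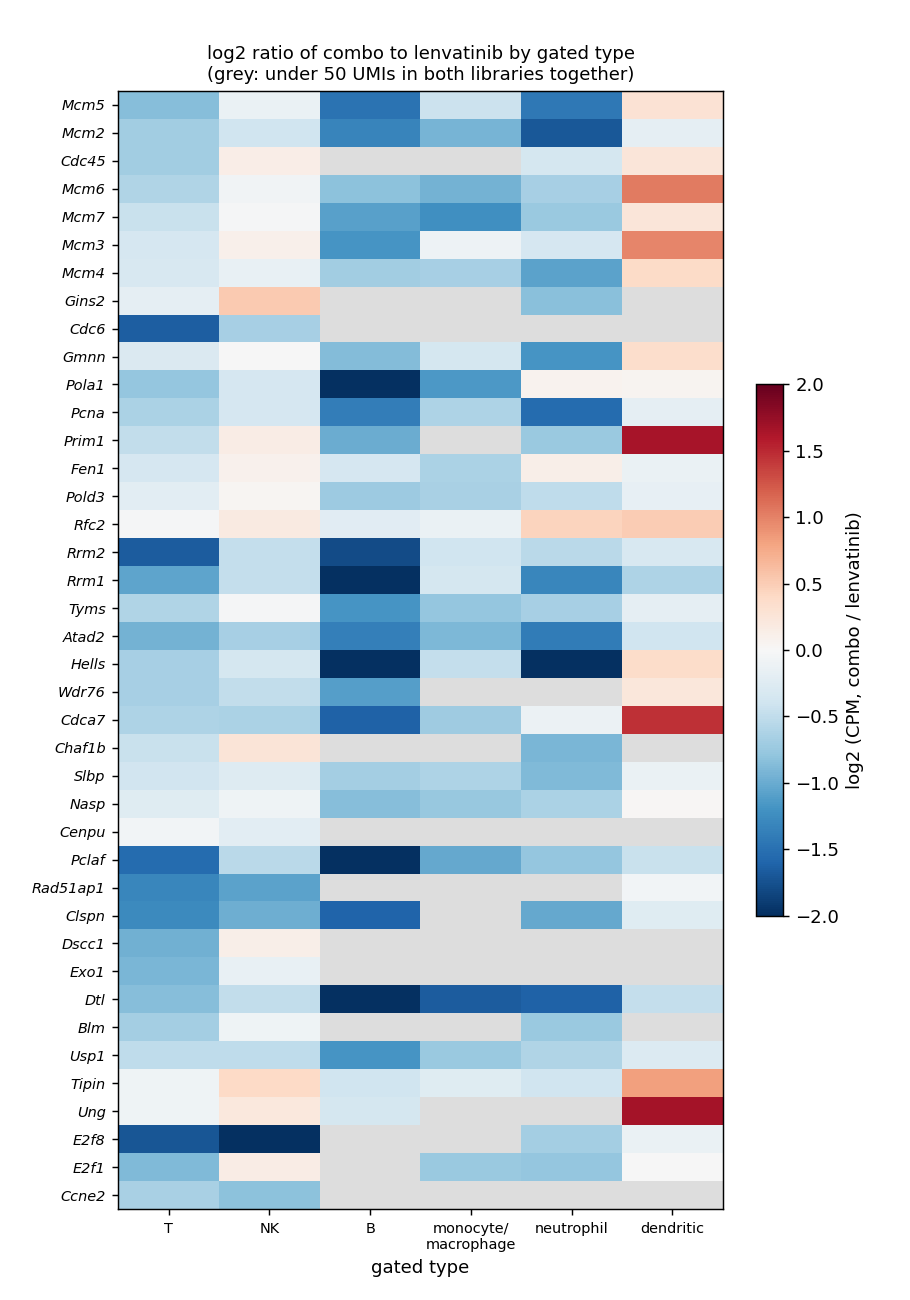
Log2 ratio of combo to lenvatinib (of CPM) for the 40 members, rows in the order of their roles, in the 6 gated types, with blue for lower and red for higher under combo, color limits at -2 and 2, and grey where both libraries together held under 50 UMIs. The T-cell and B-cell columns are blue in every filled row, and the dendritic column has red rows for Ung, Prim1, Cdca7, Mcm6 and Mcm3.

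Monocytes and macrophages went from 1346 CPM to 834, a ratio of 0.620 (0.582 to 0.660), on 192 and 432 cells. All 25 members with at least 50 UMIs were lower, against 61.9% of the 7221 genes tested, whose median ratio was 0.909, and 23 lay below that median and 2 above. At least 2-fold lower were 4 members (Dtl, Mcm7, Pola1 and Pclaf), against 5.91% of the genes tested. With each cell weighted equally, Dtl, Mcm7 and Pclaf were at 0.314, 0.419 and 0.491, but Pola1 was at 1.06. The 1 cell with the most member UMIs held 13.7% of them under lenvatinib and 5.67% under combo. For single members, 1 lenvatinib cell held 24.4% of the Dtl UMIs, 18.2% for Mcm7, 30.4% for Pola1 and 24.5% for Pclaf. Dtl was at 39.6 and 12.4 CPM, a ratio of 0.314 (0.201 to 0.490), and Mcm7 was at 48.4 and 20.6, a ratio of 0.426 (0.294 to 0.619). Rfc2 at 0.915 (0.683 to 1.24) and Mcm3 at 0.928 (0.637 to 1.38) were the highest. Rrm2, with a ratio of 0.761 (0.462 to 1.29), did not stand among the lowest as it did in T cells. At least 3 members were found in 17.5% (11.6 to 24.7) and 11.1% (8.07 to 14.7) of the cells, and in 44.8% and 46.3% without thinning, so this share kept its direction only at equal depth. Thinning left out 49 and 62 cells. The 6 NK markers in this gate summed to 439.8 and 61.8 CPM, with none of them higher under combo, and their part in the result was not tested.

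Neutrophils had the lowest summed levels, 890 CPM under lenvatinib and 479 under combo, a ratio of 0.538 (0.511 to 0.566). The 6 neutrophil markers alone summed to 117003 CPM under lenvatinib and 254632 under combo in this gate, and the median gene had a ratio of 0.687. Against that median the summed ratio of the members was 0.783. Of the 32 members with at least 50 UMIs, 29 were lower and 10 at least 2-fold lower, against 82.7% and 19.3% of the 8330 genes tested. Against the median gene 23 lay below, 3 of them at least 2-fold, and 9 above. Hells was at 16.0 and 3.96 CPM, a ratio of 0.248 (0.156 to 0.397), and Mcm2 was at 21.1 and 6.51, a ratio of 0.308 (0.210 to 0.454). Rfc2 was at 32.3 and 43.8, a ratio of 1.36 (1.06 to 1.75), and Fen1 had one of 1.08 (0.625 to 1.98). The G2 and mitosis genes, at 0.632 (0.589 to 0.679), did not have a lower ratio than the members here, whereas they did in each of the other 5 types, such as monocytes and macrophages at 0.509 (0.465 to 0.558) and dendritic cells at 0.921 (0.865 to 0.980). The share of cells with at least 3 members was 50 of 492 (7.64 to 13.2) and 61 of 1367 (3.43 to 5.70), but it was 17.2% and 20.4% without thinning, in the opposite direction, at the unequal depths given above. Thinning left out 189 and 101 cells. The 6 NK markers summed to 319.5 and 58.5 CPM in this gate, and their part in the result was not tested.

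Dendritic cells were the only type of the 6 with a summed ratio above 1. The members together went from 1375 CPM to 1475, a ratio of 1.07 (1.03 to 1.12), and 1.13 against the median gene. Of the 32 members with at least 50 UMIs, 16 were lower and 16 higher, against 57.0% of genes tested that were lower, none was at least 2-fold lower, and 4 were at least 2-fold higher, against 1.81% of the 7998 genes tested. The sign of the sum depended on how it was made, since it was 0.901 when each cell counted equally and 0.842 when only cells with at most 5000 genes and 10% mitochondrial UMIs were kept. Cells with at least 3 members were 24.5% (19.1 to 30.5) and 23.7% (18.2 to 29.98), and 78.7% and 86.6% without thinning, which left out 16 and 2 cells. Dendritic cells with at least 3 G2 and mitosis genes, 16 and 15 cells, had a member ratio of 0.693 (0.525 to 0.912). With 1 or 2 such genes, 31 and 16 cells, it was 1.285 (0.914 to 1.795), and with none 0.900 (0.762 to 1.06).

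The dendritic members moved in both directions, also within a role. The helicase genes had a summed ratio of 1.46 (1.32 to 1.61), where the intervals of Mcm6 and Mcm3 alone, of 7 genes with at least 50 UMIs, lay above 1 and Mcm2 was at 0.881. The nucleotide supply genes had one of 0.753 (0.629 to 0.901), and repair and fork checkpoint genes, with Ung among the highest and Dtl among the lowest, one of 0.930 (0.846 to 1.02). Ung was at 10.9 CPM under lenvatinib and 34.4 under combo, a ratio of 3.16 (2.05 to 5.03). Prim1, the catalytic primase subunit, was at 9.68 and 30.4, a ratio of 3.14 (1.99 to 5.15). Cdca7, a partner of the remodeler HELLS, was at 12.9 and 35.4, a ratio of 2.75 (1.83 to 4.22), and Mcm6 was at 48.8 and 100.2, a ratio of 2.06 (1.66 to 2.56). Mcm3 followed at 1.96 (1.52 to 2.55) and Tipin at 1.76 (1.33 to 2.34). In the same cells Rrm1 was at 51.2 and 33.4, a ratio of 0.653 (0.497 to 0.855), Dtl at 51.6 and 37.1, a ratio of 0.719 (0.552 to 0.934), and Pclaf at 130.6 and 95.9, a ratio of 0.734 (0.624 to 0.863).

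The higher dendritic members kept their direction when each cell counted equally, with ratios of 4.55 for Ung, 2.85 for Prim1, 2.65 for Cdca7, 1.58 for Mcm6 and 1.59 for Mcm3. No single cell carried them, since the richest combo cell held 5.83% of the Ung UMIs and 8.79% of the Prim1 UMIs. It held 10.4% for Cdca7, 5.67% for Mcm6 and 5.83% for Mcm3. The 6 NK markers summed to 174.6 and 94.9 CPM in this gate, and their part in the result was not tested. The makeup of the gate differed, however. Cells with Xcr1 or Clec9a, markers of cross-presenting dendritic cells, were 45.0% of the gate under lenvatinib (112 cells) and 34.1% under combo (74 cells), and cells with at least 2 UMIs of Siglech, a plasmacytoid dendritic cell gene, were 30.9% (77 cells) and 44.2% (96 cells). Within Xcr1 or Clec9a cells, Prim1 went from 11.8 to 45.3 CPM, Mcm6 from 62.7 to 110.3 and Mcm3 from 41.8 to 95.3, and Pclaf was at 162.2 and 172.3. Ung went from 11.1 to 27.8 in those cells, and their summed members from 1577 to 1892. In Siglech cells the summed members went the other way, from 1082 to 638 CPM, with Pclaf from 120.1 to 13.7, Mcm3 from 25.6 to 9.81 and Rrm1 from 38.4 to 21.6, while Ung went from 6.40 to 44.2. The 40 and 41 cells with none of these markers and no Cd209a had medians of 3604 and 15373 UMIs per cell, and their summed members were at 1420 and 2075 CPM. Cdca7 went from 15.9 to 90.1 CPM in them and Mcm6 from 59.6 to 203.5, on 58 and 131 combo UMIs. Xcr1 or Clec9a cells held 45 and 139 combo UMIs of these 2 genes, and Cdca7 went from 16.7 to 35.7 CPM there. In Siglech cells Cdca7 held 3 UMIs in each library.

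Across types, single members differed in how evenly they moved. Rfc2 had the highest or second highest ratio of all members with at least 50 UMIs in T cells, B cells, monocytes and macrophages, and neutrophils. Several members, Pcna, Pclaf and Slbp among them, had a ratio below 1 in all 6 types. Of all genes tested, 57.0% in dendritic cells to 82.7% in neutrophils were lower in a single type. The share of genes lower in all 6 types at once was not computed. Dtl, Atad2 and Usp1, a deubiquitinase of PCNA, were also below 1 in all 6. Dtl lay between 0.215 in B cells and 0.719 in dendritic cells, and Atad2 between 0.379 in neutrophils and 0.758 in dendritic cells. Usp1 lay between 0.441 in B cells and 0.824 in dendritic cells. Rrm1 likewise stayed below 1, from 0.217 in B cells to 0.786 in monocytes and macrophages. Mcm6 and Mcm3 ranged more widely, Mcm6 from 0.517 in monocytes and macrophages to 2.06 in dendritic cells and Mcm3 from 0.441 in B cells to 1.96 in dendritic cells.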

How the data were processed

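Single-cell libraries (10x 3′ v3) of sorted live CD45+ cells were analysed, 1 per group. The matrices that the authors deposited hold whole-number UMI counts, not normalized, from reads mapped to mm10. The submitters' processing notes name Cell Ranger 5.0.1, and the matrix headers 6.0.1. The members and lists were chosen with earlier results of these data known.

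The cell filter (at most 6000 genes and 25% mitochondrial UMIs) took out 308 lenvatinib and 376 combo barcodes. Cells were typed by exactly 1 of 6 gate genes. Counts were summed per type and library and divided by all UMIs of the type. Intervals at 95% are exact Poisson for levels, exact conditional for ratios and Clopper-Pearson for shares. With 1 library per group no test was run and no p-value is given.

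For shares and for splits by G2 and mitosis genes, each cell was thinned to 2000 UMIs with a fixed seed, and shallower cells were left out. Doublets were called with Scrublet (scanpy 1.11.5, expected rate 6%) in 4.05% and 2.76% of cells and kept, except in an alternative. Named first were the 5 lowest and 5 highest members in T cells and 2 each in other types, among members with at least 50 UMIs. Calculations used numpy 2.4.6 and scipy 1.17.1 and were tested on simulated data. Gene positions come from GENCODE M21 and promoter windows from RefSeq (GRCm38.p6).

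Alternatives changed the gate, cell filter, doublets, denominator, cell weighting, fold, UMI limit, member number and thinning depth. The split by G2 and mitosis genes, the division by the median gene and the sum without Pcna were added after seeing the data. So were the 2-fold counts with each cell weighted equally and the dendritic sum without the richest cell of each library.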

Additional observations from a re-analysis of the deposited data

Results flagged for a closer look

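The summed level of the 40 members in dendritic cells had a combo to lenvatinib ratio of 1.07, above 1, while in T, NK, B, monocyte and macrophage, and neutrophil cells the ratio lay between 0.430 and 0.855. With 1 library per group, this difference between cell types was not tested. The dendritic ratio was 1.12 with at least 2 UMIs of Flt3 and 1.07 without the richest cell of each library, but 0.901 with each cell weighted equally.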

How the results depend on the processing

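Values are combo to lenvatinib ratios unless counts are named, and the cause of each change was not tested. The summed level stayed below 1 in T, NK, B, monocyte and macrophage, and neutrophil cells under every alternative run. With each cell weighted equally it was 0.692 in T, 0.779 in NK, 0.647 in B, 0.571 in neutrophil and 0.901 in dendritic cells, where the direction turned, as it did with at most 5000 genes and 10% mitochondrial counts (0.842, and 0.467 in neutrophils). Divided by the median gene it was 0.724 in T, 0.934 in NK, 0.578 in B, 0.682 in monocyte and macrophage, 0.783 in neutrophil and 1.13 in dendritic cells. Over all UMIs of the cells with none of the G2 and mitosis genes after thinning, it was 0.826, 0.891, 0.715, 0.873, 0.597 and 1.13 in the same order. Over the thinned UMIs of the same cells it was 0.81, 0.88, 0.79, 0.68, 0.61 and 0.90, so the dendritic direction turned. With any UMI of the gate gene it was 0.808 in NK, 0.509 in B, 0.571 in neutrophil and 1.02 in dendritic cells. With at least 2 UMIs of the gate gene it was 0.681 in monocyte and macrophage and 0.591 in neutrophil cells. Without the cell filter it was 0.876 in NK, 0.695 in monocyte and macrophage and 1.15 in dendritic cells. With mitochondrial, ribosomal protein and hemoglobin genes out of the total it was 0.690 in T and 0.882 in NK cells. Without Pcna it was 0.583 in neutrophils.

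The number of members at least 2-fold lower was 7 in T, 2 in NK, 17 in B, 4 in monocyte and macrophage, 10 in neutrophil and 0 in dendritic cells. At 1.5-fold it was 24 in T, 7 in NK, 17 in monocyte and macrophage, 23 in neutrophil and 1 in dendritic cells. With 20 UMIs as the limit it was 9 in monocyte and macrophage cells. Divided by the median gene it was 1 in NK, 9 in B and 3 in neutrophil cells, and with cells weighted equally 6 in NK, 7 in B and 1 in dendritic cells. Leaving out called doublets changed none of the counts by over 1.5 times.

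The share of cells with at least 3 members had ratios of 0.703 in T, 0.805 in NK, 0.602 in B and 0.439 in neutrophil cells. Without thinning it was 0.930 in T, 0.974 in NK, 0.962 in B and 1.19 in neutrophil cells, where the direction turned. Thinned to 1000 UMIs it was 0.599 in T, 0.676 in NK and 0.412 in B cells. With at least 2 members it was 0.847 in T, 0.934 in NK and 0.813 in B cells, and with at least 5 members 0.426 in T and 0.255 in B cells. The member ratio in T cells that held at least 3 other members, 0.668, was 0.808 with at least 5.

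The libraries had no replicates, so these ranges describe the processing alone. In B, monocyte and macrophage, neutrophil and dendritic cells 8 to 15 of the 40 members stayed under 50 UMIs, and for them no difference was detectable at this depth unless it was very large.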

Other observations

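The list of 43 other replication genes, summed in the same way, had combo to lenvatinib ratios of 0.920 (0.896 to 0.945) in NK cells, 0.516 (0.486 to 0.547) in B cells, 0.658 (0.608 to 0.712) in monocytes and macrophages, 0.573 (0.537 to 0.612) in neutrophils and 1.13 (1.07 to 1.19) in dendritic cells. Within the CDK4/6 and RB axis of T cells, Cdkn2c, which encodes the CDK4/6 inhibitor p18, was at 24.7 CPM under lenvatinib and 12.9 under combo, a ratio of 0.520 (0.456 to 0.593). The RB relative Rbl1 was at 31.5 and 19.5, a ratio of 0.618 (0.553 to 0.688), and Rbl2 was at 86.8 and 61.7, a ratio of 0.711 (0.668 to 0.757). The cyclin genes Ccnd2 and Ccnd3 were at 0.914 (0.892 to 0.937) and 1.15 (1.10 to 1.19).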
